A study of Homo sapiens with 2 samples.

Results

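DDIT4, TXNIP, ARRDC3 and ARRDC4 are 4 genes that cells use to report on nutrients, stress and growth factor supply, and they were read here in single cells of a breast cancer line before and after its adaptation to medium without methionine. They are 4 of the 36601 genes in the deposited matrices, matched by symbol. They were chosen with their levels in these libraries known, so the level changes below are a description and carry no test.

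MDA-MB-231 is a triple-negative breast cancer line of mesenchymal appearance. The study made 1 library from parental cells (D0), whose medium held methionine at 100 µM. It made another from revertant cells (D21), which had spent 21 days in medium where homocysteine at 100 µM and vitamin B12 (cyanocobalamin) at 1.5 µM replaced methionine. The sample labels give a custom RPMI 1640 with dialysed serum for both and name no added vitamin B12 for D0. The comparison asks how the expression programme of cells that regain growth on homocysteine differs from that of the parental line.

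DDIT4 (also called REDD1) encodes a stress-induced protein that restrains the growth kinase mTORC1 through the TSC complex, and its transcription is known to respond to hypoxia, glucocorticoids and the amino acid stress factor ATF4. TXNIP, ARRDC3 and ARRDC4 belong to the alpha-arrestins, adaptors that bring ubiquitin ligases of the NEDD4 family to membrane proteins such as glucose transporters and receptors. TXNIP also binds thioredoxin, and TXNIP and ARRDC4 are classical targets of the glucose-sensing transcription factor pair MLXIP (MondoA) and MLX.

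The 7492 D0 cells and 12487 D21 cells held 183098116 and 182839048 UMIs (unique molecular identifiers, each standing for 1 captured transcript). The median cell had 18908 UMIs at D0 and 12022 at D21. The cell barcodes shared by both libraries numbered 21. Vimentin (VIM), the mesenchymal filament protein, was at 4157 CPM (UMIs of a gene over those of all genes, scaled to a total of 1000000) at D0 and 2876 at D21, while the estrogen receptor gene ESR1 was at 0.197 and 0.377 CPM. Markers of leukocytes summed to 28.5 and 22.7 CPM, nearly all of it CD68, with the defining marker PTPRC at 0.475 and 0.481 CPM, those of endothelium to 10.1 and 7.50 CPM, mostly PECAM1, and those of fibroblasts to 3.05 and 1.91 CPM. With 1 library per condition no variation between cultures can be seen, so no p-value is given, and every interval here is a 95% interval for counting error only.

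The stretches of promoter below are shown because 3 of the 4 genes carry short motifs there of the kind their known regulators bind. They are taken from RefSeq on GRCh38.p14, run 5′ to 3′ on the strand of the gene, and motifs are in capitals. TXNIP lies at chr1:145992435-145996600 on the minus strand (GENCODE 29, GRCh38), and bases 150 to 31 before the first of its 2 RefSeq starts, chr1:145996610-145996729, read:
TXNIP: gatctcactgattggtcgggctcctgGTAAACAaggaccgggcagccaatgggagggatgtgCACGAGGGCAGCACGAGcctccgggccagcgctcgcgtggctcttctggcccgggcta
DDIT4 lies at chr10:72273920-72276036 on the plus strand, and bases 150 to 31 before its start, chr10:72273774-72273893, read:
DDIT4: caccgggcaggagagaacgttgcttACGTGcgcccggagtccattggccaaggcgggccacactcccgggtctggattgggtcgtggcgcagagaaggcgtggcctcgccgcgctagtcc
ARRDC4 lies at chr15:97960698-97973838 on the plus strand, and the 120 bases that begin 250 bases before its start, chr15:97960453-97960572, read:
ARRDC4: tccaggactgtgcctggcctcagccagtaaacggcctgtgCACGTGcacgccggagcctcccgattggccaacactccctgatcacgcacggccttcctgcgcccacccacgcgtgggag

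The capitals in TXNIP mark a GTAAACA forkhead motif and, 88 to 72 bases before the start, a pair of E-box-like letters spaced as in a carbohydrate response element, the kind of site that MLXIP and MLX bind. Searched on both strands as CACGNG, 5 bases of any kind and CACGNG again, this pair occurred in 16 of 35116 RefSeq windows of 250 bases (0.0456%), and GTAAACA in 2.98%. The capitals in DDIT4 mark ACGTG, the core of a hypoxia response element, which 18.5% of windows held, and those in ARRDC4 mark the E-box CACGTG, which contains ACGTG and was found in 6.34% of windows. ARRDC3, at chr5:91368724-91383359 on the minus strand, held none of the 4 motifs in the window of its first start and a GTAAACA on the reverse strand in the window of its other start. Of the other motifs searched, CCAAT (32.0% of windows) was found in all 4 genes, TATATA (3.73%) in TXNIP at 29 to 24 bases before the start, and TGATGCAA, a core of amino acid response elements (0.772%), in none of the windows of these genes. These are matches of letters and not shown binding sites. Of the 16 genes with it, 11 had at least 5 CPM in either library, TXNIP among them, and 0 of the 11 were at least 1.5-fold higher while 1 was at least 1.5-fold lower, the ATP synthase subunit gene ATP5ME (524.9 to 297 CPM, ratio 0.566). Over all genes of that level 1.79% were higher and 4.37% lower by this measure, so nothing is read from these counts.

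DDIT4 was lower in the adapted cells. Its level was 149 CPM at D0 (27285 UMIs) and 71.8 CPM at D21 (13133 UMIs), a D21 to D0 ratio of 0.482 (0.472 to 0.492). Of the 11001 genes that reached 5 CPM in D0 or D21, 0.782% had a lower ratio. TXNIP differed in the opposite direction, at 189.8 CPM at D0 (34749 UMIs) and 262 CPM at D21 (47893 UMIs), a ratio of 1.38 (1.36 to 1.40), and 3.21% of genes had a higher one. ARRDC3, the arrestin known for the turnover of integrin beta-4, was at 19.1 and 30.9 CPM, a ratio of 1.62 (1.55 to 1.69). ARRDC4, the closest relative of TXNIP in glucose control, was rare, at 1.64 CPM (301 UMIs) and 2.10 CPM (384 UMIs), a ratio of 1.28 (1.10 to 1.49), and stayed below the level of 5 CPM asked of the genes compared. In these libraries the mTORC1 inhibitor was therefore lower and the 3 alpha-arrestins were higher at D21. Of the 3 genes above 5 CPM, 1 was at least 1.5-fold lower and 1 at least 1.5-fold higher, where 4.37% and 1.79% of all 11001 genes were, shares from which nothing is read because the genes were chosen on this contrast. The median gene had a log2 ratio of -0.01.

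**Figure D1:**
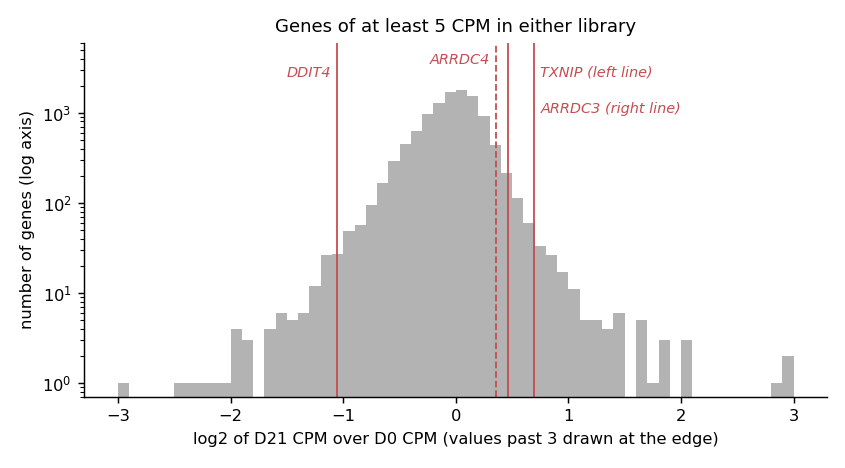
Distribution of the log2 ratio of D21 to D0 levels (horizontal axis) over the 11001 genes of at least 5 CPM in either library, with the number of genes on a log axis. Lines mark DDIT4 (ratio 0.482), TXNIP (1.38) and ARRDC3 (1.62), and the dashed line marks ARRDC4 (1.28), which lies below 5 CPM and is not in the histogram.

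The depth of the cells bears on these ratios unequally. ARRDC3 was lower in cells with more UMIs in both libraries, going from 30.5 CPM in the lowest to 14.6 CPM in the highest of 4 equal bins of D0 cells by UMI count, and from 36.8 to 28.4 CPM at D21. When only cells of 10000 to 20000 UMIs were kept, a range chosen after the data were seen, ARRDC3 was at 25.8 CPM in 3772 D0 cells and 31.3 CPM in 5518 D21 cells. Its ratio was then 1.22 (1.14 to 1.30), so the direction held and the 1.5-fold difference did not. In the same cells DDIT4 had a ratio of 0.489 (0.472 to 0.505), TXNIP 1.31 (1.28 to 1.34) and ARRDC4 1.63 (1.24 to 2.18). DDIT4 was between 144 and 152 CPM in all 4 UMI bins of D0 and between 67.9 and 77.7 CPM in those of D21. TXNIP was between 184 and 198 CPM in the bins of D0 and between 253 and 269 CPM in those of D21. Nothing is read from the distance between these bins. Both genes were chosen on this contrast, and genes other than the 4 were not binned. Across 4 bins by mitochondrial share, the ratio of DDIT4 ran from 0.449 to 0.528, that of TXNIP from 1.26 to 1.54 and that of ARRDC3 from 1.47 to 1.71. ARRDC4 did not keep its direction there, with 0.834 (0.631 to 1.10) in the lowest bin and 1.94 (1.39 to 2.72) in bin 3.

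Cells were grouped without the 4 genes into 3 clusters, named here by their markers. The AGR2 state was led by MMP1, AFF3, CST1 and AGR2 and took 58.4% of D0 and 41.2% of D21 cells. The CEMIP and SAA state was led by CEMIP, FLG, SAA2 and SAA1 and took 38.4% and 56.2%. An interferon burst, led by OASL and IFIT1, took 3.16% and 2.63%. DDIT4 was higher in the CEMIP and SAA state than in the AGR2 state in both libraries, at 178 against 118 CPM at D0 (ratio 1.50, 1.46 to 1.54) and 82.3 against 53.7 CPM at D21 (1.53, 1.47 to 1.60). The lower DDIT4 level at D21 was seen inside every state, with ratios of 0.453 in the AGR2 state, 0.463 in the CEMIP and SAA state and 0.485 in the interferon burst. The state richer in DDIT4 thus took a larger share of cells at D21 while the gene was lower over all cells. With the D21 states weighted by their shares of the D0 UMIs, not of the D0 cells, the ratio was 0.460.

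TXNIP was ordered from the AGR2 state (170 CPM at D0 and 225 CPM at D21) through the CEMIP and SAA state (204 and 279 CPM) to the interferon burst (242 and 322 CPM). This order was the same in both libraries, and neighbours differed beyond counting error. Its D21 to D0 ratio was 1.32, 1.37 and 1.33 in the 3 states. ARRDC3 had another order at D0, where the AGR2 state (22.3 CPM) lay above the CEMIP and SAA state (16.04 CPM), with a ratio of the second to the first of 0.720 (0.673 to 0.772). At D21 the states were closer, at 32.1 and 30.1 CPM, and this ratio was 0.938 (0.887 to 0.991). The CEMIP and SAA state also held the deeper cells, with a median of 26286.5 UMIs against 16206 at D0, and the part of depth in the ARRDC3 order was not tested. ARRDC4 was at 1.69 and 1.20 CPM in the AGR2 state and at 1.60 and 2.66 CPM in the CEMIP and SAA state, so its direction differed between them. A single D0 cell of the AGR2 state held 43 of the 301 ARRDC4 UMIs of its library (14.3%), while no other D0 cell had more than 3. Without that cell ARRDC4 in the AGR2 state was at 1.18 and 1.20 CPM (ratio 1.02, 0.743 to 1.39), and over all cells its ratio was 1.49 (1.27 to 1.75). In the interferon burst, which does not hold that cell, ARRDC4 had 9 UMIs at D0 and 4 at D21 (ratio 0.459, 0.103 to 1.64).

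**Figure D2:**
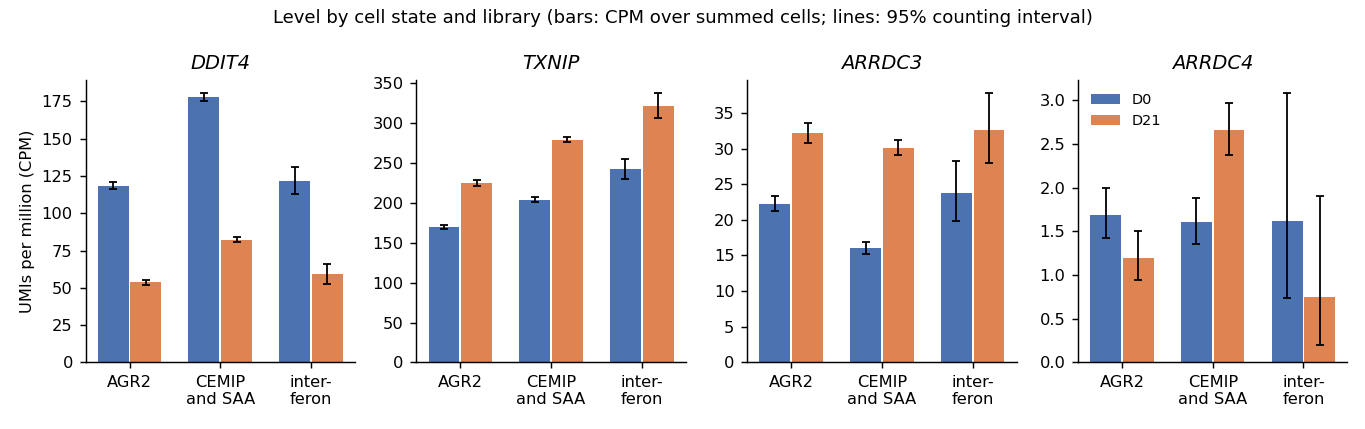
Levels of DDIT4, TXNIP, ARRDC3 and ARRDC4 in CPM (vertical axes, from 0) in the AGR2 state, the CEMIP and SAA state and the interferon burst, at D0 (blue) and D21 (orange), with 95% counting intervals. DDIT4 is lower at D21 in all 3 states, TXNIP and ARRDC3 are higher in all 3, and ARRDC4 is higher at D21 in the CEMIP and SAA state and lower in the AGR2 state, where 1 D0 cell sets it, and in the interferon burst, where the libraries hold 9 and 4 UMIs.

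The cell cycle also set the genes apart. Phases were called from S and G2/M gene scores after every cell was thinned to 5000 UMIs. DDIT4 was lowest in cells called S phase, at 105 CPM against 154 CPM in G1 and 165 CPM in G2/M at D0, and at 50.1 CPM against 78.1 and 77.0 CPM at D21. TXNIP, in contrast, was highest in G1, at 256 CPM against 163 CPM in S and 165 CPM in G2/M at D0. At D21 the G1 level was 304.6 CPM against 248 and 246 CPM, so the step from G1 to G2/M narrowed from a ratio of 0.643 (0.628 to 0.659) to 0.808 (0.792 to 0.825). The D21 to D0 ratio of TXNIP was accordingly 1.19 in G1 and 1.52 and 1.49 in S and G2/M. ARRDC3 had the same form, at 29.05, 15.9 and 15.04 CPM in G1, S and G2/M at D0 and at 39.5, 24.4 and 29.1 CPM at D21. ARRDC4 was also highest in G1 at D0, with 2.77, 1.04 and 1.28 CPM, where G1 holds the cell with 43 UMIs and was at 1.93 CPM without it. At D21 its G1 level (2.33 CPM) did not differ beyond counting error from those in S (1.78 CPM) and G2/M (2.11 CPM). Phases differ in UMIs per cell and in state, whose part in these levels was not tested.

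**Figure D3:**
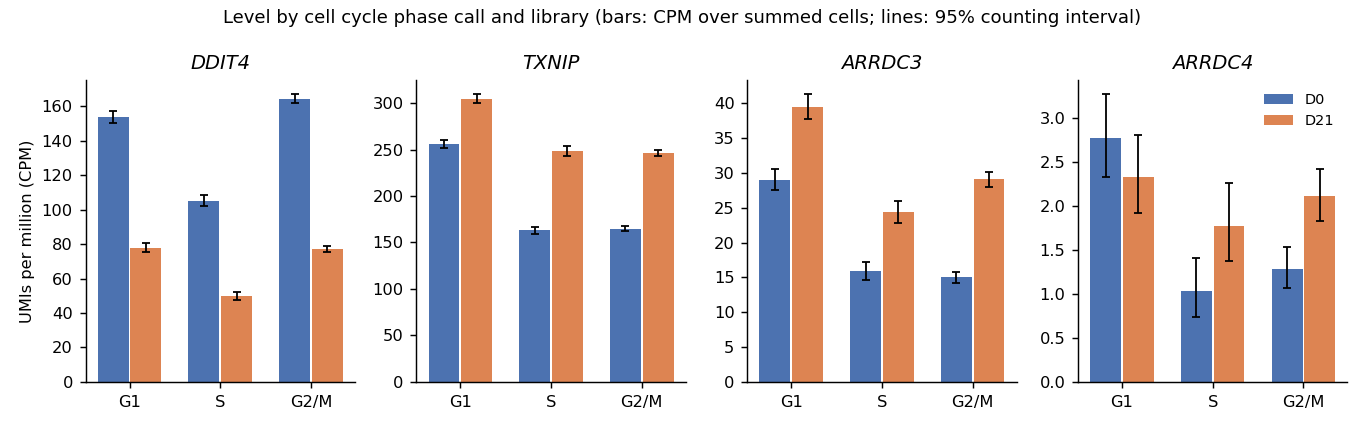
Levels of the 4 genes in CPM (vertical axes, from 0) in cells called G1, S or G2/M, at D0 (blue) and D21 (orange), with 95% counting intervals. DDIT4 dips in S phase in both libraries, whereas TXNIP and ARRDC3 are highest in G1, both with a smaller step from G1 to G2/M at D21.

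The differences in level of DDIT4, TXNIP and ARRDC3 were also seen as shares of cells with a transcript of the gene. To compare cells at equal depth each was thinned to 5000 UMIs, which left none out. A DDIT4 UMI was then found in 41.5% of D0 cells (40.3 to 42.6%) and 26.0% of D21 cells (25.3 to 26.8%), against 71.4% and 47.0% unthinned. A TXNIP UMI was found in 54.0% and 64.7% of thinned cells, against 86.7% and 85.8% unthinned, an order that depth hid. ARRDC3 was found in 9.84% and 14.7% of thinned cells and ARRDC4 in 0.587% and 0.993%, against 32.5% and 32.4%, and 3.23% and 2.83%, unthinned. For ARRDC4 thinning to 3000 UMIs gave 0.481% and 0.537%, within counting error of each other, so its difference in share depends on the depth chosen. The line holds no cell type that should lack these genes. In barcodes with 1 to 100 UMIs, which hold free RNA, DDIT4 was at 163 and 89.3 CPM, TXNIP at 146 and 182 CPM, ARRDC3 at 20.5 and 29.9 CPM and ARRDC4 at 1.39 and 2.42 CPM, so free RNA resembled the cells of its own library and the part of such RNA in the low shares was not tested.

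DDIT4 and TXNIP were spread unevenly over cells. The variance of their thinned UMIs was 1.80 and 1.81 times the mean at D0 and 1.46 and 1.74 times at D21, where equal cells would give about the mean itself. Cells with at least 5 thinned DDIT4 UMIs made up 1.44% of D0 and 0.184% of D21 cells. For TXNIP such cells made up 1.90% and 3.80%, and the richest held 20 UMIs at D0 and 36 at D21. For ARRDC3 the variance was 1.21 and 1.08 times the mean, which is not set against the others because this measure nears 1 at a low mean. For the same reason the DDIT4 values of the 2 libraries are not compared, as its thinned mean was 0.734 at D0 and 0.366 at D21.

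**Figure D4:**
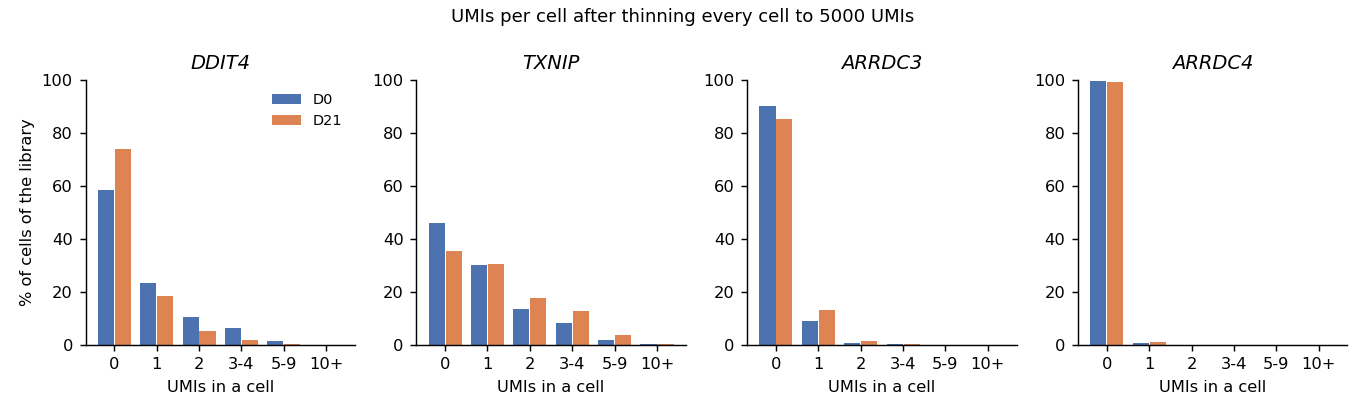
Share of the cells of each library (vertical axes, percent) by the number of UMIs of each gene in a cell after thinning to 5000 UMIs, at D0 (blue) and D21 (orange). The share of cells with 0 DDIT4 UMIs goes from 58.5% to 74.0% and that with 0 TXNIP UMIs from 46.0% to 35.3%.

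Although they moved in opposite directions between the libraries, DDIT4 and TXNIP went together weakly within each. Across thinned cells Pearson's r was 0.098 at D0 (7492 cells) and 0.074 at D21 (12487 cells), as a description of cells that share a library. Of D0 cells with a DDIT4 UMI, 58.0% also had a TXNIP UMI, against 51.1% of those without, and at D21 the shares were 68.3% and 63.4%. TXNIP and ARRDC3 had r of 0.077 and 0.053. Cells with at least 3 thinned TXNIP UMIs had 37.6 CPM of ARRDC3 against 17.6 CPM in cells with 0 at D0 (ratio 2.13, 1.73 to 2.61), and 42.4 against 28.8 CPM at D21 (1.47, 1.30 to 1.67).

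The genes that varied most with DDIT4 over cells were ranked among 6363 genes of at least 20 CPM in both libraries. All values of r were weak. The genes among the 10 highest in both libraries were TNFSF10 (r 0.18 and 0.13), which encodes the death ligand TRAIL, the translation elongation factor EEF1A1, PLAAT4, HLA-B, PDE7B and the nuclear RNA NEAT1, and those with the lowest mean were CCN1, a secreted YAP target, ARHGAP29 and SMURF2 (mean r -0.14 to -0.13). TNFSF10 and PDE7B are also leading genes of the CEMIP and SAA state. The genes at the top for TXNIP included TNFSF10, HLA-B, the nuclear RNA MALAT1, FN1 (fibronectin) and NEAT1, with mean r from 0.16 to 0.19. The histone gene H2AFZ, HMGA1 and SLC25A5 were lowest, with mean r from -0.14 to -0.12. ARRDC3 varied with MALAT1, NEAT1, TSC22D1, SQSTM1 and ERRFI1 (mean r 0.070 to 0.095) and had its most negative mean r with H2AFZ, TUBA1B and DKK1. ARRDC4 had no gene among its 10 highest in both libraries.

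At D0, cells rich in DDIT4 had more DDIT3, TRIB3 and ATF4 target transcripts chiefly in the AGR2 state. Cells with at least 3 thinned DDIT4 UMIs were compared with cells at 0 within each state. In the AGR2 state at D0, 238 rich cells had 179 CPM of DDIT3 (CHOP), a stress transcription factor downstream of ATF4, against 38.8 CPM in 2859 cells at 0 (ratio 4.62, 3.93 to 5.42). TRIB3, a pseudokinase induced by ATF4, was at 104 against 22.8 CPM (4.57, 3.69 to 5.64), and SESN2, the leucine sensor that restrains mTORC1, at 44.6 against 11.6 CPM (3.84, 2.76 to 5.26). The 34 listed ATF4 targets summed to 2450 against 1116 CPM (2.20, 2.11 to 2.28). In the CEMIP and SAA state at D0, with 334 rich and 1388 cells at 0, the same list had a ratio of 1.12 (1.08 to 1.17), DDIT3 1.15 (0.815 to 1.59) and TRIB3 1.08 (0.749 to 1.52). TNFSF10 was at 502.8 against 248 CPM in the CEMIP and SAA state (2.03, 1.87 to 2.20) and low in both classes of the AGR2 state, at 10.9 and 13.01 CPM. It was named for its high r with DDIT4 in these same cells and is a leading gene of the CEMIP and SAA state. Nothing about partners of DDIT4 in the states is therefore read from it.

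At D21 the ratios of the states differed beyond counting error for the ATF4 targets and TRIB3 and overlapped for DDIT3. In the AGR2 state the 66 DDIT4-rich cells had an ATF4 target ratio of 1.58 (1.46 to 1.70), a DDIT3 ratio of 1.93 (1.31 to 2.74) and a TRIB3 ratio of 2.76 (1.62 to 4.43), against 1.08 (1.03 to 1.13), 1.57 (1.16 to 2.08) and 0.996 (0.603 to 1.56) in the CEMIP and SAA state. Single genes and whole lists of other known DDIT4 regulators differed in rich cells. VEGFA, the hypoxia-induced growth factor, had ratios of 1.62 in both states at D0, and 1.98 (AGR2) and 1.78 (CEMIP and SAA) at D21. TSC22D3 (GILZ), a glucocorticoid-induced gene, had ratios of 2.57 and 1.58 at D0 and 3.38 and 3.54 at D21. The hypoxia target list as a whole had ratios of 1.12 (AGR2) and 1.25 (CEMIP and SAA) at D0 and 1.16 and 1.31 at D21. The glucocorticoid target list had ratios of 1.08 and 0.990 (0.961 to 1.02) at D0 and 1.04 (0.995 to 1.09) and 1.00 (0.970 to 1.04) at D21 in these states, and of 0.908 (0.891 to 0.924) and 0.934 (0.909 to 0.960) over all cells. MT2A made up 3881 of the 4547 CPM of this list at D0 and 3458 of 4057 CPM at D21. Its own ratios over all cells were 0.858 (0.841 to 0.875) and 0.891 (0.864 to 0.918). The sums therefore mostly follow MT2A and do not show the other targets. The S phase list was lower in rich cells, with ratios between 0.694 and 0.751 over the states and libraries. Over all cells the immediate early gene list was higher in rich cells, with ratios of 1.34 (1.30 to 1.39) at D0 and 1.27 (1.21 to 1.34) at D21. DDIT3 was chosen after its values were seen.

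With the states pooled, cells rich in TXNIP had a level of the ATF4 target list close to that of cells without it. DDIT3 was higher in rich cells of the AGR2 state. In cells of all states with at least 3 thinned TXNIP UMIs (762 at D0 and 2059 at D21) the ATF4 target list was compared with cells at 0. Its ratios were 1.00 (0.975 to 1.04) and 1.01 (0.991 to 1.03). Pooled in the same way, DDIT4-rich cells had ratios of 1.59 (1.55 to 1.64) and 1.24 (1.19 to 1.29). In TXNIP-rich cells DDIT3 had ratios of 1.66 and 1.56 in the AGR2 state at D0 and D21. In the CEMIP and SAA state they were 0.824 (0.563 to 1.18) and 1.14 (0.970 to 1.34). TNFSF10 was at 396 against 83.5 CPM at D0 (4.75, 4.41 to 5.11) and 406 against 156 CPM at D21 (2.61). FN1 was at 503 against 132 CPM (3.80) and 276 against 138 CPM (1.99). Within the CEMIP and SAA state these ratios were 3.26 and 2.09 for TNFSF10 and 3.24 and 1.78 for FN1. The G2/M list was lower in TXNIP-rich cells, with ratios of 0.680 and 0.877.

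**Figure D5:**
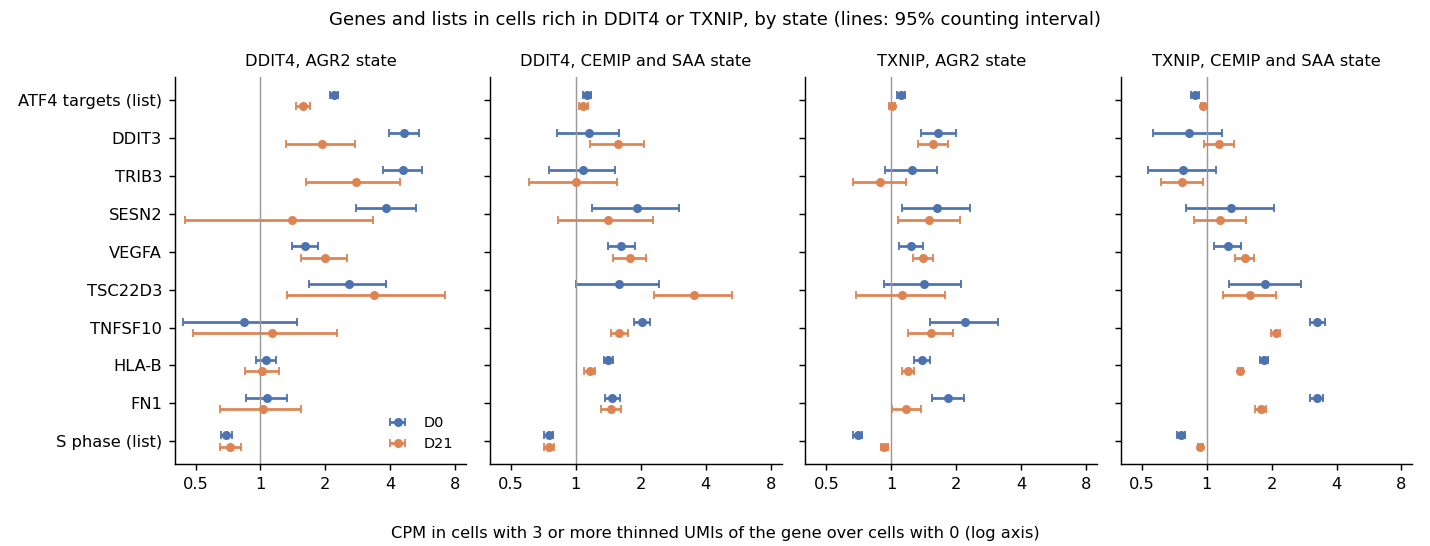
Ratio of CPM in cells with at least 3 thinned UMIs of DDIT4 (left pair of panels) or TXNIP (right pair) to cells with 0 (horizontal log axes), by state, for named genes and 2 gene lists, at D0 (blue) and D21 (orange), with 95% counting intervals. The ATF4 targets and TRIB3 have higher ratios with DDIT4 in the AGR2 state than in the CEMIP and SAA state. DDIT3 does so at D0. TNFSF10 and FN1, named for their r with TXNIP in these same cells, are higher in TXNIP-rich cells of the CEMIP and SAA state.

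Beside shares of 4.37% lower and 1.79% higher by at least 1.5-fold over all genes, the small lists of the machinery around DDIT4 gave counts of 0 and 1, from which nothing particular to them is read. Of 11 measured genes of the mTORC1 core and its substrates, 0 were at least 1.5-fold higher and 1 was lower, the autophagy kinase gene ULK1 (9.27 to 5.57 CPM, ratio 0.601), and the median log2 ratio was -0.03 beside -0.01 for all genes. RHEB, the activator of mTORC1, was at 382 and 401 CPM (1.05), and MTOR itself at 19.5 and 25.5 CPM (1.31). Of 13 genes of the TSC complex and its inputs, 0 were higher and 1 was lower, STK11 (LKB1, 0.624), with TSC2 at 12.8 and 9.77 CPM (0.764). Of 27 genes that pass amino acid signals to the Rag GTPases, 0 lay beyond 1.5-fold in either direction. Among them BMT2 (SAMTOR), the sensor of the methionine product S-adenosylmethionine, was at 14.6 and 13.4 CPM (0.915, 0.866 to 0.967) and SESN2 at 15.7 and 14.0 CPM (0.890). The arginine sensor CASTOR1, under the level of 5 CPM asked of the counted genes, was at 4.34 and 3.47 CPM (0.800). DDIT4L, the paralog of DDIT4, was at 0.251 and 0.377 CPM.

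Genes known to share the regulators of DDIT4 did not all go its way. The counts below stand beside 4.37% of all genes at least 1.5-fold lower and 1.79% higher, and a count of 1 in such short lists is near those shares. Of 28 measured ATF4 targets, 2 were at least 1.5-fold higher and 1 lower, with a median log2 ratio of 0.13. NUPR1, a stress-induced chromatin protein, was at 22.4 and 46.4 CPM (2.07, 1.995 to 2.15) and the serine synthesis enzyme PSAT1 at 77.4 and 117 CPM (1.51), while TRIB3 was at 31.4 and 20.8 CPM (0.663). ATF4 itself was at 90.7 and 103.7 CPM (1.14). Of 19 measured hypoxia targets, 5 were at least 1.5-fold lower and 1 higher (LOX, 1.55), with a median log2 ratio of -0.32. The lower ones included the carbonic anhydrase CA9 (8.77 to 2.46 CPM, ratio 0.280), the mitophagy receptor BNIP3 (825 to 439 CPM, 0.532) and PFKFB4 (26.0 to 11.4 CPM, 0.438), and VEGFA was at 120.7 and 92.0 CPM (0.762). Glucocorticoid targets were mixed. Of 11, SGK1 was higher (1.81) and ANGPTL4 lower (0.325), and TSC22D3 was at 12.7 and 8.65 CPM (0.681). Of 13 immediate early genes, 0 were higher and 1 was lower, KLF2 (0.590), with a median log2 ratio of -0.33.

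For the partners of TXNIP the same shares over all genes apply, 4.37% lower and 1.79% higher. MLXIP was at 26.1 and 25.2 CPM (0.962, 0.924 to 1.00) and MLX at 54.6 and 51.8 CPM (0.9497), and the liver-type partner MLXIPL stayed under 5 CPM. Of 7 measured genes named as glucose-sensing targets, 0 were higher and 2 were lower, PFKFB4 and the fatty acid synthase FASN (69.1 to 31.7 CPM, 0.458). PFKFB4 is also counted among the lower hypoxia targets. Other pathways also control both genes, and their part was not tested. Thioredoxin (TXN), which TXNIP binds, was at 1497 and 1992 CPM (1.33, 1.32 to 1.34), and 0 of 15 genes of the thioredoxin system reached 1.5-fold in either direction. MAP3K5 (ASK1), another thioredoxin client, came closest at 28.6 and 42.9 CPM (1.499).

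The other 3 arrestins of at least 5 CPM did not share the direction of TXNIP and ARRDC3, and none passed 1.5-fold. Over all genes 4.37% were lower and 1.79% higher by that measure, so counts of 0 or 1 in this and the next lists are near the background. ARRDC1 was at 26.2 and 19.8 CPM (0.758), ARRDC2 at 7.21 and 5.08 CPM (0.704) and ARRB1 at 15.6 and 12.1 CPM (0.777). ARRB2, under 5 CPM like ARRDC4, went the way of TXNIP, at 3.05 and 4.02 CPM (1.32, 1.18 to 1.47). ARR3, SAG and ARRDC5 were rarer still. Of 11 ubiquitin ligase genes and adaptors that work with arrestins, 0 passed 1.5-fold. NEDD4 (1.02), ITCH (1.00) and WWP1 (0.990) were near 1, and NEDD4L was the furthest from it at 99.5 and 145 CPM (1.46). Among proteins that the arrestins remove from the surface, the glucose transporter gene SLC2A1 was at 107 and 89.6 CPM (0.836) and ITGB4 at 40.3 and 23.9 CPM (0.591, 0.570 to 0.614), the only 1 of 6 beyond 1.5-fold. Of 20 genes controlled by FOXO factors, which also act on TXNIP, 1 was higher, SOD2 (1.64), and 1 lower, PINK1 (0.662).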

How the data were processed

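The deposited values are UMI counts for every gene and barcode, empty droplets included. The authors prepared them from 10x Genomics 3' libraries using Cell Ranger 4, and the submitters' notes name GRCh38. No source used here gives the annotation version. A barcode was kept as a cell if it had at least 9009 UMIs at D0 or 5422 at D21 (10% of the 99th percentile among the top 5000), 500 genes and no more than 20% mitochondrial UMIs. Doublets were kept, with an alternative that left out the 6% of cells with the most UMIs.

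UMIs were summed over cells and scaled to a total of 1000000 (CPM). Ratios have exact conditional Poisson intervals and shares exact Clopper-Pearson intervals (scipy 1.17.1), for counting error only. Libraries held 199799447 and 199817213 UMIs. Clusters (scanpy 1.11.5, Leiden resolution 0.15, 2000 variable genes, 20 components, 20 neighbours) were built without the 4 genes. Correlations used log(1 + UMI) in cells thinned to 5000 UMIs. Calculations were tested on simulated data. Alternatives changed cell calling, scaling, thinning, state weights and list limits.

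The 4 genes and all lists were chosen with earlier results of these data known, as was the rule for named genes: the 4 genes, a set of genes with roles around them, the genes with the highest r in both libraries and the lowest mean r, the leading genes of each cluster, and in each list those of highest level and furthest from a ratio of 1. LOX, DDIT4L, ATP5ME and DDIT3 were added after their values were seen. The symbol SAMTOR is listed as BMT2. Some genes are not reported here.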

Additional observations from a re-analysis of the deposited data

Results flagged for a closer look

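The D21 to D0 ratio of ARRDC4 went in opposite directions in the main states, 0.707 (0.527 to 0.943) in the AGR2 state and 1.66 (1.36 to 2.03) in the CEMIP and SAA state. The difference was not tested, since each condition has 1 library. The value in the AGR2 state rests on 1 D0 cell with 43 ARRDC4 UMIs among 62812 and with 0 TXNIP UMIs. Without it the ratio there was 1.02 (0.743 to 1.39). The same cell lies in G1, where the ratio over all cells of that phase was 0.841 (0.650 to 1.09) with it and 1.21 (0.913 to 1.60) without it.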

How the results depend on the processing

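All 4 ratios of D21 to D0 kept their direction under every alternative run. DDIT4 ran from 0.460 to 0.4998, TXNIP from 1.31 to 1.41, ARRDC3 from 1.22 to 1.81 and ARRDC4 from 1.18 to 1.63. A UMI minimum at 20% in place of 10% moved TXNIP to 1.40 and ARRDC3 to 1.81. Without the 6% of cells with the most UMIs, DDIT4 was at 0.4998, TXNIP at 1.36 and ARRDC3 at 1.52. A total without mitochondrial and ribosomal protein genes gave 0.493 for DDIT4 and 1.41 for TXNIP, and the mean of per-cell CPM gave 0.499, 1.36 and 1.45 for DDIT4, TXNIP and ARRDC3. State weights gave 0.460 for DDIT4 and 1.35 for TXNIP. Cells of 10000 to 20000 UMIs, a range added after the data were seen, gave 1.31 for TXNIP, 1.22 for ARRDC3 and 1.63 for ARRDC4. ARRDC3 was thus under 1.5-fold in the last of these and in the per-cell mean. Thinning to 3000 UMIs gave ratios of shares of 0.584 for DDIT4, 1.248 for TXNIP, 1.50 for ARRDC3 and 1.12 for ARRDC4, where 5000 gave 0.628, 1.20, 1.49 and 1.69. The 29 mean correlations kept their sign centred per state and unthinned. All 29 lay further from 0 unthinned. Centred per state only 6 did so and others came closer, such as HLA-B with DDIT4 (0.133 to 0.065). The cause was not tested. No paired analysis was possible because each condition has 1 library. At 1.64 and 2.10 CPM, ARRDC4 is limited by depth.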
